A study of Mus musculus with 10 samples.

Results

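The SX682 arm of a mouse lung tumour experiment was compared with its vehicle arm in every cell cluster of the tumour nodules. The 23230 cells of 3 SX682 and 3 vehicle mice were taken from 44986 cells of 12 mice, by the treatment and hashtag number that the authors gave each cell. Their transcripts (unique molecular identifiers, UMIs) were summed per mouse within each of the authors' 33 clusters, wherever a mouse had at least 10 cells. Genes were compared in the 27 clusters that met this in all 6 mice, and 4 more clusters were fitted without the mice that fell short. Clusters 11 and 22, with fewer than 2 such SX682 mice, had no gene test.

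All groups carried tumours of KP cells, a lung tumour line given by vein to syngeneic hosts, and were treated for 11 days once imaging had shown tumours. SX682 mice received SX682 and vehicle mice received vehicle. Vehicle mice 1 to 3 are called V1 to V3 and SX682 mice 1 to 3 S1 to S3. The other groups, which entered the fits for the estimate of spread, received SHP099 or SHP099+SX682. Neither the strain, age and sex of the mice nor the dose is given in the sources used here. Nodules were dissociated, live cells were enriched with magnetic beads, and the hashtagged cells of the 3 mice of a treatment were pooled and captured together with a 10x V(D)J kit, so that each mouse is a separate animal but treatment and capture cannot be told apart. Because the tumours grew from 1 injected line, the tumour cells of all mice share that line. The comparison asks, per the series' stated design, how drug treatment changes tumour cells and the cells around them.

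SX682 is an inhibitor of CXCR1 and CXCR2, the receptors through which neutrophils follow CXCL chemokines such as CXCL1, CXCL2, CXCL3 and CXCL5 out of the blood. Both receptors signal through G proteins, and in mice CXCR2 is the one that serves most neutrophil recruitment. In tumours, the ligands are made by tumour cells, fibroblasts and myeloid cells, neutrophils included. Neutrophils leave the bone marrow carrying RNA for granule and calprotectin proteins, and the level of such RNA differs between young and older cells.

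The 6 mice gave 2632 to 6399 cells each, with 13895570 to 34819434 UMIs per mouse. The median number of UMIs per cell was 2824, 3102.5 and 4838 in vehicle mice and 2501.5, 2506 and 2731.5 in SX682 mice, so that cells of all 3 SX682 mice were shallower than those of any vehicle mouse. Of the cell barcodes, 203 occurred in both the vehicle capture (12453 cells) and the SX682 capture (10777 cells), and 0 occurred more than once within a capture. S3 stood apart in its makeup, with 10.1% of its cells in cluster 3 and 8.82% in cluster 8, both of T cells, against 1.45 to 2.88% in the other 5 mice. Clusters carry numbers only in the deposited table. Names ending in -like were given here from each cluster's leading genes and marker lists, so a different naming of the same clusters is possible, and clusters 14, 22 and 27 were left unnamed.

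The share of tumour cells was lower in the SX682 mice. Cluster 21 (Epcam tumour cell-like), which holds cells with Epcam and keratin transcripts, made up 9.31, 7.10 and 14.4% of cells in V1 to V3 and 4.49, 2.47 and 2.90% in S1 to S3. All 3 SX682 mice lay below all 3 vehicle mice, and the mean fell from 10.3 ± 3.74% to 3.29 ± 1.06% (SD, n = 3), which on the log2 scale is -1.64 ± 0.40 (SE, adjusted p = 0.0329) by edgeR's quasi-likelihood test on cell counts. This was the 1 call among 33 clusters (3.03%). The exact permutation test of 3 against 3 mice gave its smallest possible two-sided p of 0.1. The call was lost without V1 (-1.71), V3 (-1.32) or S2 (-1.47), and with the 6 mice fitted alone (-1.64, adjusted p = 0.293).

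Groups also did not overlap in 4 more clusters, none of which passed. Cluster 23 (Hmga2 tumour cell-like), the other cluster of tumour cells, made up 8.24, 8.18 and 7.64% of cells in V1 to V3 and 5.83, 2.3 and 1.78% in S1 to S3, or -1.28 ± 0.44 (SE, adjusted p = 0.126). Cluster 16 (Arg1 macrophage-like) made up 7.09, 5.26 and 12.6% of cells in V1 to V3 and 2.98, 2.78 and 3.57% in S1 to S3, or -1.42 ± 0.54 (SE, adjusted p = 0.129). Both thus had lower shares in each SX682 mouse. In the opposite direction, cluster 5 (cycling T cell-like) made up 0.484, 0.438 and 0.570% of cells in V1 to V3 and 0.686, 0.968 and 2.31% in S1 to S3, or 1.40 ± 0.48 (SE, adjusted p = 0.126), with the highest share in the SX682 mouse that was rich in T cells. The unnamed cluster 27 was higher in each SX682 mouse, at 0.95 ± 0.44 (SE, adjusted p = 0.237).

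In neutrophil-like clusters no share differed beyond the spread between mice by the test. Cluster 30 (Ccl3 neutrophil-like) made up 1.20, 1.20 and 0.950% of cells in V1 to V3 and 2.06, 5.88 and 0.945% in S1 to S3, or 1.41 ± 0.54 (SE, adjusted p = 0.129) that rests on S2. Cluster 33 (Retnlg neutrophil-like) made up 7.00, 3.45 and 2.01% of cells in V1 to V3 and 6.20, 3.07 and 0.980% in S1 to S3, or -0.28 ± 0.59 (SE, adjusted p = 0.787), with overlapping groups. Clusters 28, 29, 31 and 32 had log2 fold changes of 0.34 ± 0.44 (SE, adjusted p = 0.656), 0.21 ± 0.45 (SE, adjusted p = 0.787), -0.46 ± 0.51 (SE, adjusted p = 0.656) and 0.34 ± 0.44 (SE, adjusted p = 0.656). Endothelial-like cells (cluster 10) made up 1.78, 0.468 and 0.494% of cells in V1 to V3 and 7.52, 1.16 and 0.140% in S1 to S3, and S1 alone was far above the rest (1.65 ± 0.99, SE, adjusted p = 0.323). Of all 33 clusters, 21 had a log2 fold change above 0 and 12 below, and 6 had an unadjusted p under 0.05. Shares sum to the whole, so the values of different clusters are not independent.

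**Figure D1:**
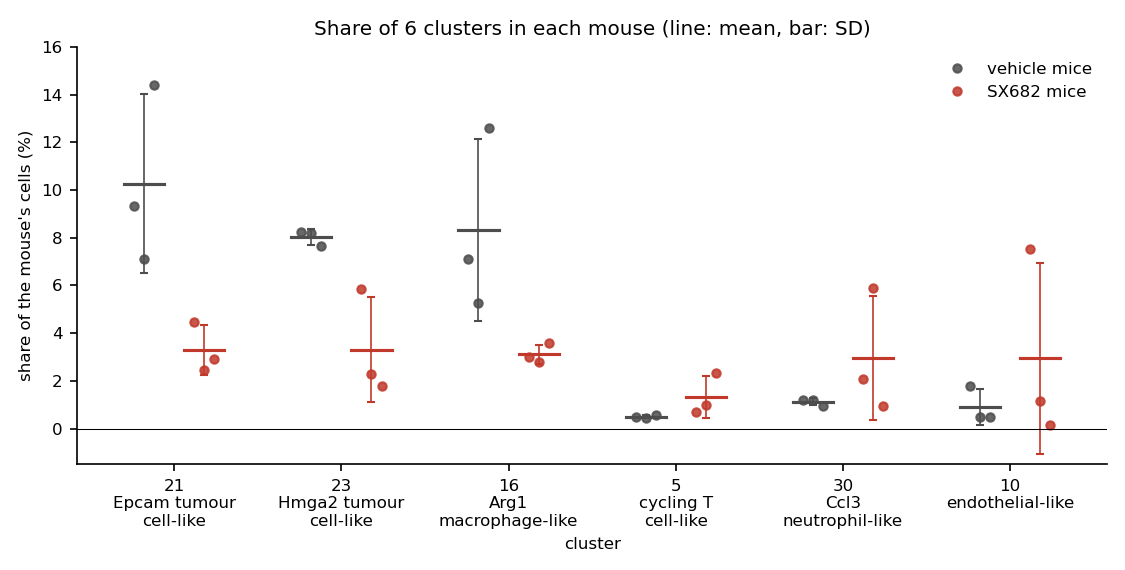
Share of each mouse's cells (y axis, percent) in 6 clusters (x axis), with 1 point per mouse, a line at the group mean and a bar of 1 SD. In clusters 21, 23 and 16 every SX682 mouse lies below every vehicle mouse, in cluster 5 every SX682 mouse lies above, and in clusters 30 and 10 single SX682 mice (5.88% and 7.52%) set the group mean.

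Gene changes were few in every cell type and mostly downward. Over the 27 clusters, 443 of 120560 gene and cluster pairs passed edgeR's quasi-likelihood test at a Benjamini-Hochberg adjusted p below 0.05 (0.367%), 71 higher with SX682 (0.0589%) and 372 lower (0.309%). The calls belonged to 191 genes, of which 43 were higher in some cluster, 151 lower, and 3 called in both directions. In 20 of the 23 clusters with a call, more genes fell than rose. Ribosomal protein genes made up 162 of the 372 lower calls and 0 of the higher ones. The groups overlapped in 10 of the 443 calls, and 104 calls (18 higher, 86 lower) held when any 1 of the 6 mice was left out. Where a call was lost without 1 mouse, that mouse is named here, mostly with the log2 fold change found without it, and values written as x ± y with an SE are log2 fold changes of SX682 against vehicle. The count depended on single mice: it was 235 without V1, 278 without V2 and 173 without S2.

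Ribosomal protein genes made up most calls in lymphocyte clusters 1, 3, 5 and 8, but 6 of 17 in cluster 2 and 0 in clusters 6 and 9. B cell-like cells (cluster 1) had 3 genes higher and 28 lower of 5826 tested (0.532%), with 18 of the 28 ribosomal. Naive T cell-like cells (cluster 2) had 2 higher and 15 lower (0.365%), Ly6c2 CD8 T cell-like cells (cluster 3) 0 and 6 (0.154%), cycling T cell-like cells (cluster 5) 0 and 19 (0.444%), Cxcr6 T cell-like cells (cluster 8) 3 and 11 (0.433%) and gamma delta T cell-like cells (cluster 9) 0 and 2 (0.139%). Of Gzma NK cell-like cells (cluster 6), 3 genes were higher and 5 lower (0.201%). No gene passed edgeR's test in Gzmc NK cell-like or plasma cell-like cells (clusters 7 and 4) or in the unnamed clusters 14 and 27, where 123, 137, 298 and 11 genes had an unadjusted p under 0.05 and DESeq2 called 9, 16, 14 and 0.

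Among myeloid clusters, alveolar macrophage-like cells (cluster 26) had the most calls, with 17 genes higher and 51 lower of 7681 tested (0.885%). C1q macrophage-like cells (cluster 15) had 4 and 27 (0.35%), Arg1 macrophage-like cells (cluster 16) 1 and 11 (0.121%), Gpnmb macrophage-like cells (cluster 25) 3 and 33 (0.422%) and monocyte-like cells of cluster 13 2 and 6 (0.279%). Dendritic clusters gave 2 higher and 2 lower for mature cells (cluster 17, 0.115%), 4 and 23 for type 1 cells (cluster 18, 0.537%) and 2 and 25 for type 2 cells (cluster 19, 0.485%). In neutrophil-like cells the counts were 1 and 6 in cluster 28 (0.219%), 3 and 11 in cluster 29 (0.555%), 3 and 18 in cluster 30 (0.442%), 1 and 0 in cluster 31 (0.045%), 0 and 3 in cluster 32 (0.287%) and 1 and 14 in cluster 33 (1.02%). The tumour clusters differed in count, with 1 and 1 in cluster 21 (0.0218%) and 15 and 55 in cluster 23 (0.705%), which has the deeper cells.

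A test of the difference between cell types passed nowhere. For each gene, the change in 1 cluster was set against its mean change over the other clusters with limma on 9 mice. Of 116959 pairs, 0 passed (0%), and 5260 had an unadjusted p under 0.05, or 4.50% of them. The smallest adjusted p was 0.115, for an immunoglobulin gene, Igkv12-89, in B cell-like cells. With clusters summed into 10 cell classes, 0 of 67043 pairs passed and the smallest adjusted p was 0.146. The lists of calls per cluster given here are thus lists of what passed in each cluster, and none of these genes was shown to change in 1 cell type more than in others.

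**Figure D2:**
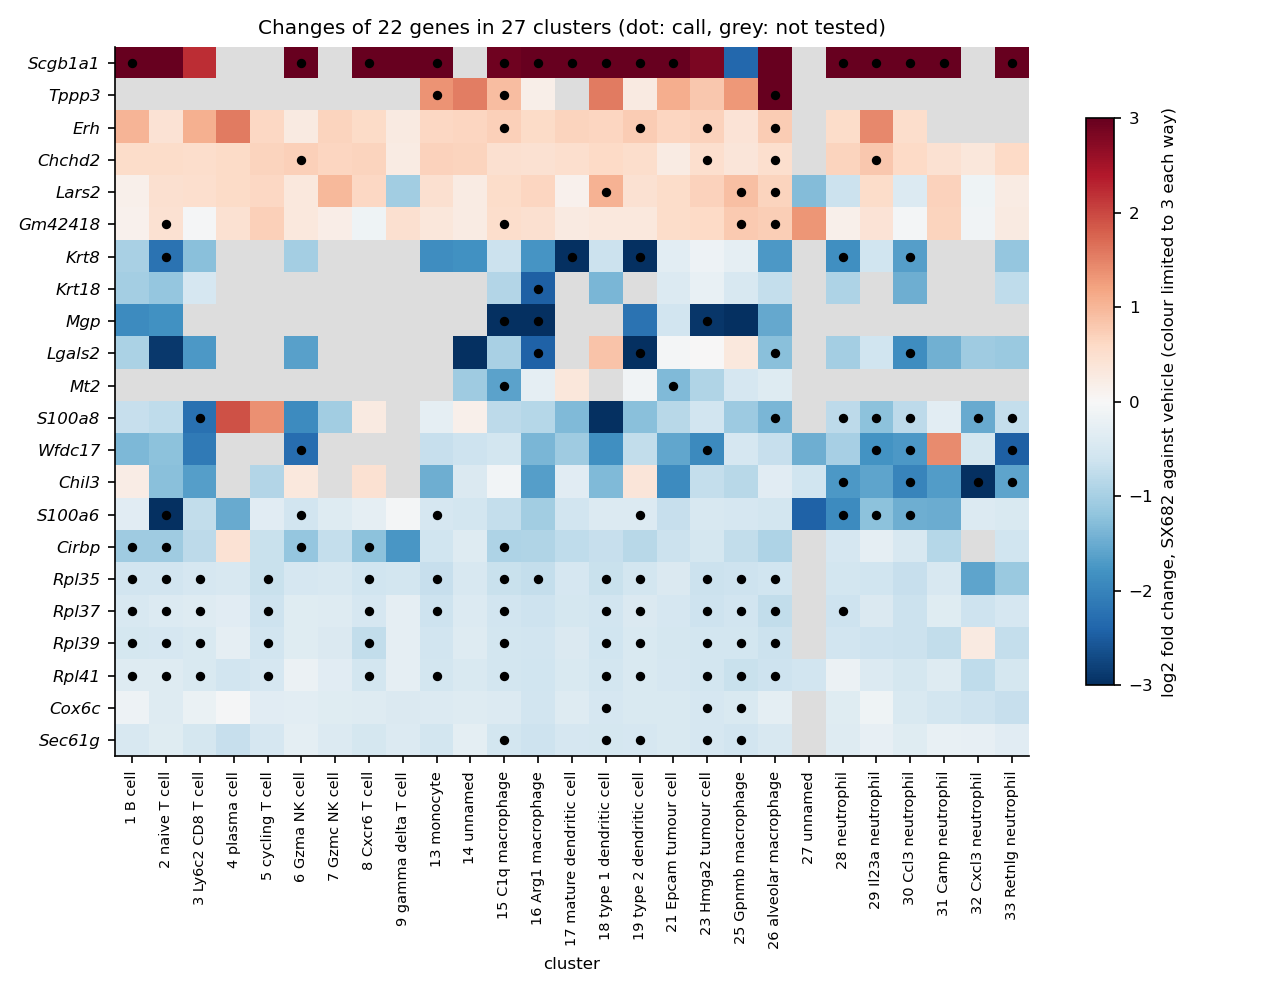
Log2 fold change, SX682 against vehicle (colour, limited to 3 each way), of 22 genes (rows) in the 27 clusters tested in all 6 mice (columns), with a dot where edgeR's adjusted p was below 0.05 and grey where the gene was not tested. Scgb1a1 and the genes under it to Gm42418 are red in most clusters, the keratin and S100 genes are mainly blue, and the ribosomal protein genes are pale blue in nearly every column.

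A group of genes moved on average over all cell types. A test of the mean change over clusters, with 1 value per mouse and gene (limma, 9 mice), passed for 17 of 8343 genes in the upward direction (0.204%) and for 91 in the downward direction (1.09%), against a median of 0.03 over all genes on the log2 scale. The count of 108 calls became 43 without V1, 44 without V2, 70 without V3, 40 without S2 and 53 without S3. Mean changes quoted here held without any 1 mouse unless a mouse is named. Clusters of a mouse share its capture, so a change seen in many clusters is 1 observation per mouse, not many.

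Ribosomal protein genes, which encode the proteins of the ribosome, led the downward calls. Rpl41, Rpl37 and Rpl35 had log2 fold changes below 0 in 27 of 27, 26 of 26 and 26 of 26 tested clusters and passed as lower in 12, 13 and 13 of them, and Rpl39 passed in 11 of 26. In alveolar macrophage-like cells Rpl37 (chromosome 15, 5116645 to 5119140, in mm10) was at 2014, 1902 and 2026 CPM in V1 to V3 and 1185, 1086 and 1307 CPM in S1 to S3. All 3 SX682 mice lay below the vehicle mice, and Rpl37 fell by 0.73 ± 0.08 (SE, adjusted p = 5.95e-05). Mean changes over clusters were -0.58 ± 0.07 (SE, adjusted p = 0.00374) for Rpl35, -0.47 ± 0.05 (SE, adjusted p = 0.00374) for Rpl37 and -0.45 ± 0.06 (SE, adjusted p = 0.00568) for Rpl41, and each held without any 1 mouse. Ribosomal protein genes have many processed pseudogenes, and Rpl35 and Rps28 overlap exons of another gene, so reads could be split between copies. A fixed list of 33 ribosomal protein genes gave 53 lower and 0 higher calls in 872 pairs (6.08%, against 0.367% over all pairs), with a median mean change of -0.06. In UMI totals the groups overlapped: ribosomal protein genes held 21.9, 22.1 and 20.3% of UMIs in vehicle mice and 19.8, 19.4 and 22.5% in SX682 mice, and all SX682 mice were lower in 5 clusters and higher in 1.

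Short transcripts had lower mean changes than long ones. Genes whose longest annotated transcript is under 500 bases had a median mean change of -0.27 (47 genes, 7 called lower and 2 higher), those of 500 to 1000 bases -0.06 (422 genes, 39 lower and 1 higher), those of 1000 to 2000 bases -0.01 (1450 genes), and those of 4000 bases or more 0.05 (3144 genes). The order was the same with ribosomal protein genes left out, from -0.21 in the shortest bin to 0.05 in the longest. The median longest transcript was 971 bases for genes called lower, 1743 for genes called higher and 3339 for all tested. Cox6c, a subunit of cytochrome c oxidase, and Sec61g, a subunit of the channel that passes proteins into the endoplasmic reticulum, have longest annotated transcripts of 3038 and 1862 bases and were also lower. Both had log2 fold changes below 0 in 26 of 26 clusters and passed in 3 and 5, with mean changes of -0.37 ± 0.05 (SE, adjusted p = 0.00916) and -0.42 ± 0.05 (SE, adjusted p = 0.00568). The longest transcript of Cox6c has 2 exons, and exons of the gene overlap Vps13b. Which transcripts the cells held was not tested, so these lengths do not place Cox6c or Sec61g outside the length pattern. With 1 capture per treatment, a length pattern of the capture and one of the treatment cannot be told apart.

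**Figure D3:**
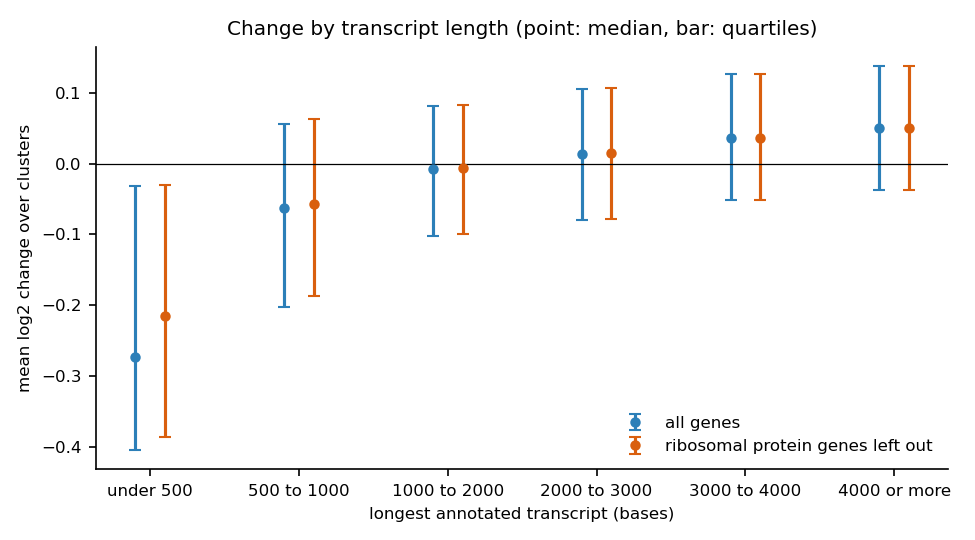
Mean log2 change over clusters (y axis) of genes grouped by the length of their longest annotated transcript in bases (x axis), as the median (point) with quartiles (bar), for all genes and with ribosomal protein genes left out. The medians run from -0.27 in genes under 500 bases to 0.05 in genes of 4000 bases or more.

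Scgb1a1, the club cell secretory protein of airway epithelium (chromosome 19, 9083636 to 9087958), was the most widespread increase. It passed as higher in 15 of 21 clusters where it was tested and had the highest mean change over clusters among called genes, 3.16 ± 0.16 (SE, adjusted p = 2.36e-05). In neutrophil-like cells of cluster 28 it had 0 UMIs in each vehicle mouse and 56, 66 and 11 in the SX682 mice, at least 31.7-fold higher against a floor of 3 UMIs over the group. In Ccl3 neutrophil-like cells they were 0, 0 and 0 against 33, 89 and 6, at least 16.7-fold higher. Naive T cell-like cells held 0, 0 and 0 against 66, 29 and 50, but Scgb1a1 did not pass edgeR's test there (adjusted p = 0.485). Retnlg neutrophil-like cells held it at 10.9, 78.5 and 25.6 CPM in V1 to V3 and 313, 316 and 419 CPM in S1 to S3, or 3.61 ± 0.44 (SE, adjusted p = 6.45e-06), with every SX682 mouse higher. None of these cells is known to make Scgb1a1. The alveolar and airway epithelial-like cells (cluster 24), its source, held 7586, 28 and 3159 UMIs in vehicle mice and 31357, 8907 and 4669 in SX682 mice. Outside that cluster its level was 3.35, 46.3 and 2.92 CPM in vehicle mice and 52.2, 57.7 and 51.7 CPM in SX682 mice. In each of the 21 clusters its level was under 5% of that in another cluster, so it was tested in 0 clusters when such genes were left out. V2 was high through 823 UMIs in Gpnmb macrophage-like cells (cluster 25), the 1 cluster where the log2 fold change was below 0 (-2.35). Tppp3, a tubulin-binding protein of ciliated airway cells, also rose over clusters by 1.07 ± 0.12 (SE, adjusted p = 0.00374).

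Krt8 and Krt18 moved the other way in the mean over the 27 clusters. Krt8, a keratin of simple epithelium, had log2 fold changes below 0 in 19 of 19 clusters, passed in 5, and fell over clusters, at -1.34 ± 0.08 (SE, adjusted p = 4.91e-05). In naive T cell-like cells Krt8 was at 68.5, 101 and 55.7 CPM in V1 to V3 and 12.2, 18.4 and 18.8 CPM in S1 to S3, or -2.21 ± 0.40 (SE, adjusted p = 0.00451). No SX682 mouse reached the lowest vehicle mouse. In mature dendritic cell-like cells Krt8 fell by 3.45 ± 0.45 (SE, adjusted p = 0.000495), a call lost without V2 (-2.91). Krt18, its partner keratin, was below 0 in 13 of 13 clusters, passed in 1, and had a mean change of -1.02 ± 0.14 (SE, adjusted p = 0.00762). In fibroblast-like cells (cluster 20), fitted without S3, Krt18 instead rose, from 225, 224 and 341 CPM with vehicle to 637 and 849 CPM with SX682, or 1.45 ± 0.24 (SE, adjusted p = 0.0198), lost without V1 (1.34), V2 (1.33) or S2 (1.24). Krt8 was under 5% of its level in another cluster in 17 of the 19, and passed in 0 of the other 2 with such clusters left out. Lgals4, a galectin of epithelium, fell by 0.98 ± 0.11 (SE, adjusted p = 0.00374). Outside the tumour clusters, 9 genes of tumour epithelium summed to 294, 344 and 296 CPM in vehicle mice and 258, 278 and 169 CPM in SX682 mice, beside the lower share of tumour cells, and the part of free tumour RNA in the keratin changes was not tested. Krt8 and Krt18 did not pass in the tumour clusters themselves.

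Mgp, Lgals2, Prl2c2, Ccl2 and Mt2 also fell in the mean over clusters, and passed in 3 of 9, 4 of 19, 3 of 5, 2 of 8 and 2 of 9 single clusters. Prl2c2 is a leading gene of Hmga2 tumour cell-like cells (cluster 23) and Mgp one of fibroblast-like cells (cluster 20). The part of free RNA from such cells in their falls elsewhere was not tested. Mgp, matrix Gla protein, an inhibitor of calcification made by mesenchymal cells, fell over 9 clusters, at -2.55 ± 0.22 (SE, adjusted p = 0.001). In Arg1 macrophage-like cells it was at 109.8, 105 and 70.6 CPM in V1 to V3 and 0, 1.75 and 7.21 CPM in S1 to S3, or -5.07 ± 0.50 (SE, adjusted p = 0.00240). S3 was the highest of its group and still far under every vehicle mouse. Lgals2, a galectin, was in the same cells at 77.1, 87.4 and 62.1 CPM in V1 to V3 and 15.1, 11.4 and 15.4 CPM in S1 to S3, or -2.43 ± 0.21 (SE, adjusted p = 0.00133) with no overlap. Its mean change over 19 clusters was -1.23 ± 0.17 (SE, adjusted p = 0.00808), and in Ccl3 neutrophil-like cells it fell by 1.86 ± 0.32 (SE, adjusted p = 0.00206), lost without S2 (-1.82). Prl2c2, a secreted prolactin family member known as proliferin, fell over clusters, at -2.15 ± 0.25 (SE, adjusted p = 0.00374), and in B cell-like cells, chosen here after its values were seen, it was at 52.5, 63.6 and 39.6 CPM in V1 to V3 and 6.91, 0 and 2.27 CPM in S1 to S3 (-4.48 ± 0.70, SE, adjusted p = 0.00272). Ccl2, the chemokine that draws monocytes through CCR2, fell by 1.20 ± 0.14 (SE, adjusted p = 0.00449). Mt2, a metal-binding metallothionein, fell by 0.64 ± 0.09 (SE, adjusted p = 0.00916), whereas Mt1, its relative at -0.83 ± 0.12 (SE, adjusted p = 0.00956), lost its call without V1 (-0.81) or S2 (-0.76).

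Few genes other than Scgb1a1 rose in many clusters. Erh, a small nuclear protein of RNA processing, had a log2 fold change above 0 in 23 of 23 clusters, passed in 4, and rose over clusters by 0.65 ± 0.07 (SE, adjusted p = 0.00374). Chchd2, a mitochondrial protein, was above 0 in 26 of 26 clusters with 4 calls and rose by 0.56 ± 0.06 (SE, adjusted p = 0.00374). Lars2, which charges mitochondrial leucine tRNA, was above 0 in 22 of 27 with 3 calls. Its mean change of 0.41 ± 0.09 (SE, adjusted p = 0.0525) did not pass. Gm42418, a noncoding RNA gene whose exons overlap another gene, was above 0 in 23 of 27 with 4 calls and rose by 0.41 ± 0.06 (SE, adjusted p = 0.00808). Mitochondrially encoded genes held 2.23, 2.33 and 2.18% of UMIs in vehicle mice and 2.81, 2.49 and 2.52% in SX682 mice, with all SX682 mice higher in 7 clusters and lower in 0. Of their 13 genes, 4 passed as higher and 1 as lower in the mean over clusters, with a median of 0.22.

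Neutrophil-like cells showed lower levels of granule and calprotectin transcripts. Several of the RNAs that fell are short, with longest annotated transcripts of 498 bases for S100a8, 519 for S100a9, 533 for Wfdc17 and 434 for Wfdc21. Those of Lcn2 and Chil3 are longer, at 1374 and 1539 bases. The part of the length pattern described above in these falls was not tested. Some of these genes, such as S100a8, S100a9 and Lcn2, encode proteins packed into neutrophils as they mature. Start regions are shown because the genes fell together in several of the 6 clusters. The stretches run up to 250 bases before the transcription start, from RefSeq on GRCm38.p6, and end before any annotated exon, and capitals mark each TTNNGNAA on either strand, a core shape of sites bound by C/EBP factors of myeloid cells.

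Wfdc17: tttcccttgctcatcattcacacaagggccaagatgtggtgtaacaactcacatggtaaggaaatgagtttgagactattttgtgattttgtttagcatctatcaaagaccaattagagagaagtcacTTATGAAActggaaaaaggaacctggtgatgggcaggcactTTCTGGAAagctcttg
S100a8: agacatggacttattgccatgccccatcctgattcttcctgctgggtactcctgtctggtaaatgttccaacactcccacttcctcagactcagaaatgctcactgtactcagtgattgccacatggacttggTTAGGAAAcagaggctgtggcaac
S100a9: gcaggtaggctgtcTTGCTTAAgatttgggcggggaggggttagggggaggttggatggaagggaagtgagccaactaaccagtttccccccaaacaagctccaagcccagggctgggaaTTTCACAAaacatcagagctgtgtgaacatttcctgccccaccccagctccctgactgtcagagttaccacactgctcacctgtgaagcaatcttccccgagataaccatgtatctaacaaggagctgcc
Chil3: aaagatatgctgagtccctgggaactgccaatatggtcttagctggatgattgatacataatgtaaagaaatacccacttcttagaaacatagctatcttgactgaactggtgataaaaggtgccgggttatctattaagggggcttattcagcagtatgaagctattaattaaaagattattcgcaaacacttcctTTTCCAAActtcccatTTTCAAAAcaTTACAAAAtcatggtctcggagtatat

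The windows lie at chr11:83703806-83703990, forward strand, for Wfdc17, at chr3:90668821-90668977, forward strand, for S100a8, at chr3:90695722-90695971, reverse strand, for S100a9, and at chr3:106167565-106167814, reverse strand, for Chil3. They hold 2, 1, 2 and 3 matches. A match is common: 12104 of 32851 promoter windows of 250 bases hold at least 1 (36.8%), and 30.7% and 27.1% hold one at the shorter spans used for Wfdc17 and S100a8. The 238 bases before S100a6, which also fell, hold 0 matches. These letters are a description of the windows and show no binding.

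In Retnlg neutrophil-like cells (cluster 33), Wfdc17, a secreted protein with a WAP domain (chromosome 11, 83703991 to 83706268), was at 8035, 8195 and 7841 CPM in V1 to V3 and 1638, 1418 and 1118 CPM in S1 to S3. Each SX682 mouse lay far below the vehicle mice, and the log2 fold change was -2.46 ± 0.20 (SE, adjusted p = 2.42e-09) by edgeR. Its relative Wfdc21, also with a WAP domain, was at 1305, 1144 and 1076 CPM in V1 to V3 and 576, 393 and 373 CPM in S1 to S3, or -1.31 ± 0.19 (SE, adjusted p = 0.000108). Lcn2, which binds bacterial iron carriers, was at 2050.3, 2197 and 2409 CPM in V1 to V3 and 1172, 853 and 419 CPM in S1 to S3, or -1.23 ± 0.19 (SE, adjusted p = 0.000258). Cstdc4, of the stefin family that inhibits cysteine proteases, was at 1428, 1312 and 1153 CPM in V1 to V3 and 591, 479 and 186 CPM in S1 to S3, or -1.41 ± 0.26 (SE, adjusted p = 0.00196). Groups did not overlap for any of these 4 genes, and none lost its call when 1 mouse was left out. In the same cells S100a8, the small subunit of calprotectin (chromosome 3, 90668978 to 90670035), was at 43720, 42210 and 49095 CPM in V1 to V3 and 24850, 27062 and 30327 CPM in S1 to S3, or -0.72 ± 0.12 (SE, adjusted p = 0.00105), again with every SX682 mouse lower.

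S100a8 fell in 5 of the 6 neutrophil-like clusters. In cluster 32 (Cxcl3 neutrophil-like) it was at 30495, 24216 and 18585 CPM in V1 to V3 and 7973, 10440 and 7026 CPM in S1 to S3, or -1.52 ± 0.19 (SE, adjusted p = 1.94e-05). Cluster 29 (Il23a neutrophil-like) had 28172, 27169 and 16954 CPM in V1 to V3 and 13192, 9125 and 8203 CPM in S1 to S3, or -1.24 ± 0.20 (SE, adjusted p = 0.000998). SX682 mice were below vehicle mice in both. In cluster 28 the change was -0.79 ± 0.12 (SE, adjusted p = 0.000246) and in cluster 30 -0.78 ± 0.13 (SE, adjusted p = 0.00206), the latter lost without V2 (-0.65) or S1 (-0.68). S100a9, its partner subunit, fell by 0.96 ± 0.16 (SE, adjusted p = 0.00116) in cluster 32. Chil3, a chitinase-like protein of myeloid cells, was in cluster 32 at 2082, 1914 and 230.4 CPM in V1 to V3 and 198, 27 and 0 CPM in S1 to S3, or -4.58 ± 0.67 (SE, adjusted p = 0.000131). V3 was near the highest SX682 mouse for Chil3 and the groups still did not overlap. Chil3 also fell in cluster 33 (-1.58 ± 0.35, SE, adjusted p = 0.0163, lost without V1 (-1.59) or S1 (-1.47)), in cluster 28 (-1.72 ± 0.37, SE, adjusted p = 0.0261, lost without V1 (-1.48), V2 (-1.49), S2 (-1.53) or S3 (-1.51)) and in cluster 30 (-1.99 ± 0.41, SE, adjusted p = 0.0135, lost without V1 (-1.31), S2 (-1.37) or S3 (-1.77)).

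Other genes also fell in neutrophil clusters. S100a6, a calcium-binding S100 protein (chromosome 3, 90612882 to 90624181), fell in clusters 28, 29 and 30. Cluster 30 had 5059, 5791 and 4479.9 CPM in V1 to V3 and 2141, 2029.5 and 1238 CPM in S1 to S3, or -1.46 ± 0.17 (SE, adjusted p = 2.08e-06), and clusters 28 and 29 had -1.89 ± 0.24 (SE, adjusted p = 2.80e-05) and -1.22 ± 0.16 (SE, adjusted p = 4.25e-05). S100a6 was below 0 in 27 of 27 clusters in all, passed in 7, and had a mean change of -0.80 ± 0.07 (SE, adjusted p = 0.001). In cluster 28, Car4, a membrane carbonic anhydrase, was at 425, 361 and 262 CPM in V1 to V3 and 137, 82.2 and 17.6 CPM in S1 to S3, or -1.95 ± 0.27 (SE, adjusted p = 6.18e-05), with no overlap. Alveolar macrophage markers, a list that itself holds Car4, summed there to 516 to 1460 CPM in vehicle and 230 to 601 CPM in SX682 mice. Their part in the Car4 call was not tested. Wfdc17 fell in cluster 29 from 492, 262 and 549.5 CPM in vehicle mice 1 to 3 to 81.8, 165 and 104 CPM in S1 to S3, or -1.79 ± 0.29 (SE, adjusted p = 0.00106). Crip1, a small LIM domain protein, was in cluster 30 at 549, 516 and 524 CPM in V1 to V3 and 208, 179 and 155 CPM in S1 to S3, or -1.53 ± 0.28 (SE, adjusted p = 0.00459), a call lost without S2 (-1.46).

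Upward calls in neutrophils were fewer and less firm. Cxcl10, a chemokine induced by interferons that draws CXCR3-bearing T cells, was in cluster 29 at 60.2, 209 and 275 CPM in V1 to V3 and 555, 362 and 673 CPM in S1 to S3, or 1.73 ± 0.40 (SE, adjusted p = 0.0427). Every SX682 mouse was higher, but the call was lost without V1 (1.02), S1 (1.55) or S3 (1.62). Siglecf, a sialic acid receptor found on tumour neutrophils and alveolar macrophages, was in cluster 30 at 150.3, 159 and 175 CPM in V1 to V3 and 276, 332 and 252 CPM in S1 to S3, or 0.95 ± 0.22 (SE, adjusted p = 0.0393), and the call was lost without V1 (0.94), V2 (1.0), S1 (1.04) or S2 (0.77). Over all clusters where it was tested, Siglecf rose by 0.75 ± 0.15 (SE, adjusted p = 0.0389), a call lost without any of the mice but S1 (0.55 to 0.83 without 1 of the others). H2-Aa, an MHC class II chain, fell in cluster 29, at -2.14 ± 0.41 (SE, adjusted p = 0.00708), lost without V2 (-1.40). Markers of type 2 dendritic cells summed there to 199.9 to 428 CPM in vehicle and 308 to 523 CPM in SX682 mice and those of macrophages to 399.9 to 1394 CPM in vehicle and 506 to 950.2 CPM in SX682 mice, with overlap in both.

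**Figure D4:**
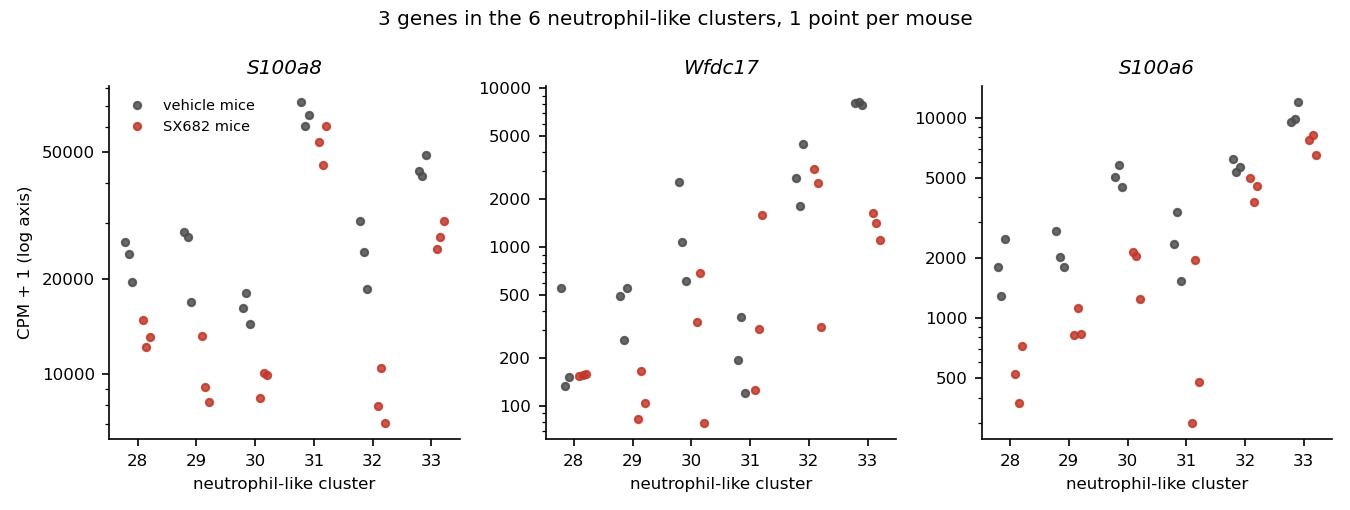
CPM + 1 (log axis) of S100a8, Wfdc17 and S100a6 in the 6 neutrophil-like clusters (x axis), with 1 point per mouse. In cluster 33 the SX682 mice lie below the vehicle mice for S100a8 (24850 to 30327 against 42210 to 49095 CPM) and Wfdc17 (1118 to 1638 against 7841 to 8195 CPM), while in cluster 31 the groups overlap for Wfdc17.

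The list of 17 granule and young-neutrophil genes gave 1 higher and 28 lower calls in 233 pairs (12.4%, against 0.367% over all pairs). Its median mean change was -0.77 against 0.03 for all genes, and 2 of its 13 members tested over clusters passed, both lower. These were Lcn2, lost without V1, V2, S2 or S3, and Wfdc17, lost without V2 or S3. S100a8, S100a9, Retnlg and Chil3 did not pass that limma test (adjusted p = 0.440, 0.603, 0.439 and 0.455). By cluster, 7 of 13 tested members were lower in cluster 33, 5 of 12 in cluster 30, 3 of 11 in cluster 29, 3 of 10 in cluster 32, 2 of 11 in cluster 28 and 0 of 14 in cluster 31 (median -0.19), with 0 higher. Retnlg and S100a9 are among the genes that define cluster 33. The same RNAs also fell in cells not known to make them: S100a8 fell in Ly6c2 CD8 T cell-like cells, at -2.23 ± 0.42 (SE, adjusted p = 0.0111), a call lost without S3 (-1.66). Clusters outside the neutrophil ones also hold monocyte-like cells. In cluster 13 neutrophil markers summed to 3262 to 4769 CPM in vehicle and 3560 to 5730 CPM in SX682 mice. Outside the neutrophil clusters S100a8 and S100a9 summed to 2352, 1744 and 1401 CPM in vehicle mice and 1112, 1101 and 422 CPM in SX682 mice. Within them the sums were 81373, 80326 and 73085 CPM and 56033, 35365 and 64422 CPM, and all SX682 mice were lower in both. The neutrophil clusters were mixed differently by mouse, with 5.88% of cells in cluster 30 for S2 against 0.945 to 2.06% in the other mice. Neutrophil markers summed in vehicle mice to 46708 to 57008 CPM in cluster 30 and 137050 to 156790 CPM in cluster 33. The part of that mix in the pooled sums was not tested. Where S100a8 was at 5% or more of its highest level, which was in 6 clusters, it passed in 5, all neutrophil-like.

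RNA of the receptors that SX682 blocks passed the test in 1 cluster. Cxcr2 (chromosome 1, 74153989 to 74161246) was tested in 12 clusters and passed in 0. In cluster 33 it was at 386, 493 and 436 CPM in V1 to V3 and 427, 469.6 and 326 CPM in S1 to S3, or 0.02 ± 0.23 (SE, adjusted p = 0.991), with overlapping groups. In the other 5 neutrophil-like clusters its mean ran from 143 to 529 CPM in vehicle mice and from 162 to 349.9 CPM in SX682 mice. Cxcr1 (chromosome 1, 74191785 to 74194631) was tested in 3 clusters and was lower in alveolar macrophage-like cells, at 53.1, 65.4 and 32.1 CPM in V1 to V3 and 20.5, 27.3 and 14.4 CPM in S1 to S3, or -1.24 ± 0.24 (SE, adjusted p = 0.0110). All SX682 mice were lower, and the call was lost without V1 (-1.24) or V2 (-1.04). In Ccl3 neutrophil-like cells Cxcr1 differed by -2.01 ± 0.78 (SE, adjusted p = 0.396).

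UMIs of CXCR2 ligands were found in neutrophil, macrophage and tumour clusters in both groups. Neutrophil markers summed in Epcam tumour cell-like cells to 4614 to 9987 CPM in vehicle and 2826 to 6889.5 CPM in SX682 mice, and the part of free RNA in the ligand levels was not tested. Cxcl2 was high in Il23a neutrophil-like cells, at 58070, 44611 and 43411 CPM in V1 to V3 and 52551, 44625 and 37365 CPM in S1 to S3, or -0.12 ± 0.14 (SE, adjusted p = 0.890), and passed in 0 of 26 clusters. Cxcl3 was in the same cells at 1882, 1036 and 1212 CPM in V1 to V3 and 772, 642 and 621 CPM in S1 to S3, or -1.04 ± 0.24 (SE, adjusted p = 0.0427). It was lower in each SX682 mouse there, but lost the call without V1 (-0.72), S2 (-1.0) or S3 (-1.02), and it passed in no other cluster. Cxcl5, tested in the tumour clusters alone, was at 68.3, 67.9 and 77.8 CPM in V1 to V3 and 146, 164 and 68.1 CPM in S1 to S3 in Hmga2 tumour cell-like cells (0.88 ± 0.26, SE, adjusted p = 0.192) and differed by 1.0 ± 0.29 (SE, adjusted p = 0.322) in Epcam tumour cell-like cells. Cxcl1 was tested in 8 clusters and passed in 0, with 0.45 ± 0.31 (SE, adjusted p = 0.709) in Hmga2 tumour cell-like cells and -3.15 ± 0.75 (SE, adjusted p = 0.117) in C1q macrophage-like cells. Ppbp, a platelet ligand of CXCR2, fell in Arg1 macrophage-like cells, at -3.51 ± 0.44 (SE, adjusted p = 0.00973), lost without S2 (-3.24). Of the 7 ligands on the list, 80 pairs gave 0 higher and 2 lower calls (2.50%, against 0.367% over all pairs).

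Alveolar macrophage-like cells, which clear surfactant and particles from the air spaces, had 21 calls that held without any 1 mouse. Krt79, a keratin found in these macrophages (chromosome 15, 101929332 to 101940324), was at 36.6, 30.6 and 39.0 CPM in V1 to V3 and 125, 166 and 132 CPM in S1 to S3, or 2.04 ± 0.26 (SE, adjusted p = 0.000199). Piezo1, an ion channel opened by stretch, whose exons overlap another gene, was at 40.1, 27.4 and 32.1 CPM in V1 to V3 and 73.2, 74.3 and 74.0 CPM in S1 to S3, or 1.13 ± 0.19 (SE, adjusted p = 0.00298). Ahnak, a very large scaffold protein under the membrane, was at 81.9, 107 and 91.8 CPM in V1 to V3 and 157, 237 and 220.3 CPM in S1 to S3, or 1.14 ± 0.19 (SE, adjusted p = 0.00196). Each SX682 mouse was above each vehicle mouse for all 3 genes. Vim (vimentin, an intermediate filament) and S100a10 (an annexin partner), chosen here after their values were seen, were likewise apart. Vim was at 1129.8, 1239.9 and 1229.6 CPM in V1 to V3 and 1766, 2223 and 2384 CPM in S1 to S3, or 0.82 ± 0.10 (SE, adjusted p = 0.000199), and S100a10 rose by 0.70 ± 0.10 (SE, adjusted p = 0.000442). Lars2 rose by 0.67 ± 0.09 (SE, adjusted p = 0.000199) and Gm42418 by 0.73 ± 0.10 (SE, adjusted p = 0.000442). Markers of alveolar macrophages, a list that itself holds Krt79, summed to 12001 to 17329 CPM in vehicle and 10577 to 16819 CPM in SX682 mice, and those of neutrophils to 860.0 to 1051 CPM in vehicle and 295 to 692 CPM in SX682 mice, and their part in these calls was not tested.

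Downward calls in the same cells were mainly of ribosomal protein genes (30 of 51). Beside them, Ccl17, a CCR4 ligand, fell by 2.12 ± 0.49 (SE, adjusted p = 0.0361), lost without V1 (-1.91), V3 (-1.90), S1 (-2.20), S2 (-2.30) or S3 (-1.94). Lgmn, a lysosomal protease, fell by 0.45 ± 0.10 (SE, adjusted p = 0.0397), lost without V1 (-0.40), V2 (-0.49), V3 (-0.45), S1 (-0.41) or S2 (-0.40). S100a8 fell by 1.38 ± 0.25 (SE, adjusted p = 0.00507), lost without V1 (-1.28) or S2 (-1.29).

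**Figure D5:**
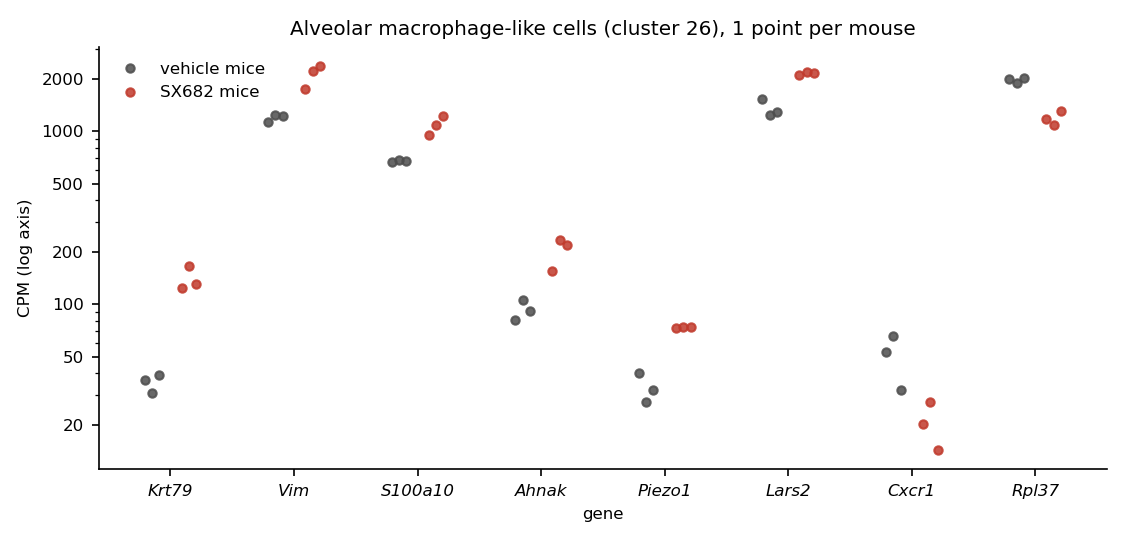
CPM (log axis) of 8 genes (x axis) in alveolar macrophage-like cells, with 1 point per mouse. Vehicle and SX682 mice do not overlap in any of the 8 genes: Krt79, Vim, S100a10, Ahnak, Piezo1 and Lars2 are higher with SX682, Cxcr1 and Rpl37 lower.

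In the other macrophages the calls were fewer per gene tested. Lars2 in Gpnmb macrophage-like cells (cluster 25) was at 643, 742 and 930.4 CPM in V1 to V3 and 1561, 1262 and 1485 CPM in S1 to S3, or 0.90 ± 0.12 (SE, adjusted p = 0.00410), with no overlap. In C1q macrophage-like cells (cluster 15) the metallothionein Mt2 fell by 1.59 ± 0.20 (SE, adjusted p = 0.00275), lost without S2 (-1.51), and Mt1 fell by 1.0 ± 0.17 (SE, adjusted p = 0.0164), lost without V2 (-0.98), V3 (-0.87) or S2 (-0.85). Mgp fell there, at -3.05 ± 0.49 (SE, adjusted p = 0.0128), lost without V2 (-2.62) or S2 (-2.72). Rbp4, a retinol carrier, fell in Arg1 macrophage-like cells, at -2.34 ± 0.28 (SE, adjusted p = 0.00969), lost without S2 (-2.13). Of the 18 complement and lipid genes of macrophages, 2 pairs of 283 passed, both lower (0.707%, against 0.367% of all pairs). These were Apoe in monocyte-like cells of cluster 13 and Lgmn in alveolar macrophage-like cells. The 18 genes of alternative macrophages gave 7 lower calls in 172 pairs (4.07%), 4 of them Chil3 in neutrophils. The rest were Gpnmb and Trem2 in Hmga2 tumour cell-like cells and Ccl17 in alveolar macrophage-like cells. No call of either list was in Gpnmb, C1q or Arg1 macrophage-like cells.

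In tumour cells, Inhba, which encodes the activin A subunit of the TGF-beta family (chromosome 13, 16011851 to 16031621), was at 45.8, 37.2 and 46.3 CPM in V1 to V3 and 13.5, 9.42 and 15.9 CPM in S1 to S3 in Hmga2 tumour cell-like cells. The groups were well apart, and Inhba fell by 1.76 ± 0.27 (SE, adjusted p = 0.00578) without losing its call when any 1 mouse was left out. Erh was in the same cells at 138, 121 and 144 CPM in V1 to V3 and 213, 215 and 219 CPM in S1 to S3, or 0.68 ± 0.09 (SE, adjusted p = 0.00286). Gm26917, a noncoding RNA gene, rose by 0.97 ± 0.14 (SE, adjusted p = 0.00349) and Chchd2 by 0.49 ± 0.08 (SE, adjusted p = 0.00624). Gm26917 (chromosome 17, 39843013 to 39846341) lies beside Gm42418 (39846958 to 39848788), and whether their reads share a source was not tested. Cox6c fell by 0.50 ± 0.08 (SE, adjusted p = 0.00728). These too held without any 1 mouse. Herpud1, of the unfolded protein response, rose by 0.48 ± 0.10 (SE, adjusted p = 0.0380), lost without V1 (0.43), V3 (0.43), S1 (0.38) or S2 (0.53). Cebpd, a transcription factor of inflammation whose exon overlaps another gene, was at 26.3, 20.4 and 26.7 CPM in V1 to V3 and 80.4, 38.6 and 47.6 CPM in S1 to S3, or 1.26 ± 0.26 (SE, adjusted p = 0.0312), lost without V1 (1.31), V2 (1.12), V3 (1.28) or S1 (0.78). The mitochondrial gene mt-Nd4 rose by 0.54 ± 0.10 (SE, adjusted p = 0.0142) and was lost without V1 (0.48), V3 (0.49) or S1 (0.46).

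Macrophage genes fell in the same tumour cluster. Gpnmb was at 34.3, 19.8 and 14.6 CPM in V1 to V3 and 1.5, 0.942 and 12.1 CPM in S1 to S3, or -3.03 ± 0.63 (SE, adjusted p = 0.0341), lost without V1 (-2.55), V2 (-3.13), S1 (-2.29) or S2 (-2.71). Trem2, a lipid receptor of macrophages, was at 11.6, 14.5 and 8.31 CPM in V1 to V3 and 1.31, 1.88 and 3.73 CPM in S1 to S3, or -2.63 ± 0.51 (SE, adjusted p = 0.0221), lost without V1 (-2.59), V2 (-2.44), S1 (-2.17) or S2 (-2.66). Macrophage markers summed there to 346 to 383 CPM in vehicle and 23.7 to 362 CPM in SX682 mice, with 3 of 10 lower in all SX682 mice and none at 0, and their part in these calls was not tested. In Epcam tumour cell-like cells Scgb1a1 and Mt2 were the 2 calls. Mt2 was at 90.3, 90.7 and 95.5 CPM in V1 to V3 and 36.0, 36.8 and 37.1 CPM in S1 to S3, or -1.33 ± 0.19 (SE, adjusted p = 0.0291), with a narrow spread in both groups, and was lost without V1 (-1.36), V2 (-1.35), S1 (-1.32), S2 (-1.35) or S3 (-1.35). The tumour clusters had different numbers of calls, but the test of the difference passed for no gene.

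Lymphocyte calls outside ribosomal proteins and keratins were of few genes. Cirbp, an RNA-binding protein induced by cold, had log2 fold changes below 0 in 24 of 25 clusters and passed in 5: -1.06 ± 0.22 (SE, adjusted p = 0.0288) in B cell-like, -1.16 ± 0.23 (SE, adjusted p = 0.0197) in Gzma NK cell-like, -1.23 ± 0.22 (SE, adjusted p = 0.00763) in Cxcr6 T cell-like and -0.92 ± 0.17 (SE, adjusted p = 0.0280) in C1q macrophage-like cells, and also in naive T cell-like cells. Each of the 4 calls given with values was lost without V1, each also without S2 or S3, and 3 without V2. In gamma delta T cell-like cells Fos, a subunit of the AP-1 factor that rises within minutes of stimulation, was at 1027, 772 and 248 CPM in V1 to V3 and 212, 147 and 107 CPM in S1 to S3, or -2.26 ± 0.38 (SE, adjusted p = 0.00607). V3 lay close to S1, and the call was lost without V1 (-1.85) or S3 (-1.99). Junb, its partner, fell there, at -1.10 ± 0.21 (SE, adjusted p = 0.0139), lost without V2 (-1.05), S1 (-1.02) or S3 (-1.0). Cd7, a surface protein of T and NK cells, rose in Cxcr6 T cell-like cells by 1.28 ± 0.26 (SE, adjusted p = 0.0316), lost without V1 (1.06), V2 (1.35), S1 (1.29) or S2 (1.18).

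Ccr7, the receptor that guides lymphocytes to lymph nodes, was in B cell-like cells at 411, 524 and 317 CPM in V1 to V3 and 228, 269.9 and 172 CPM in S1 to S3, or -0.92 ± 0.20 (SE, adjusted p = 0.0449). SX682 mice were lower without overlap, and the call was lost without V1 (-0.97), V2 (-0.74), S1 (-0.94) or S3 (-0.78). In Gzma NK cell-like cells Ccl3, an inflammatory chemokine, was at 541, 319.9 and 1312 CPM in V1 to V3 and 305, 201 and 226 CPM in S1 to S3, or -1.45 ± 0.30 (SE, adjusted p = 0.0197), lost without V3 (-0.85) or S2 (-1.31). Lyz2, the lysozyme of myeloid cells, rose there by 0.99 ± 0.21 (SE, adjusted p = 0.0259), lost without V1 (1.02), V2 (1.06), V3 (0.91) or S2 (0.74). H2-Eb1 and Cd74, of the MHC class II pathway, fell in naive T cell-like cells, at -1.47 ± 0.27 (SE, adjusted p = 0.00495) for the former and -1.40 ± 0.31 (SE, adjusted p = 0.0323), lost without V1 (-1.30) or S1 (-1.18) for H2-Eb1 and without V1 (-1.47), V2 (-1.36), V3 (-1.35), S1 (-1.14) or S3 (-1.26) for Cd74. B cell markers summed in those cells to 240.4 to 268 CPM in vehicle and 179.6 to 267 CPM in SX682 mice, and their part was not tested. Fth1, the heavy chain of ferritin, fell in the same cells, at -0.71 ± 0.11 (SE, adjusted p = 0.00125) and held without any 1 mouse. It was picked after seeing its values. Of the lists of effector genes, inhibitory receptors and regulatory T cell genes, 1 pair passed of 226, 141 and 115 tested, which was Ccl3 among the effector genes (0.442%, against 0.367% of all pairs).

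Dendritic and monocyte clusters gave calls that mostly rested on single mice. Lgals2 fell in type 2 dendritic cell-like cells, at -3.20 ± 0.38 (SE, adjusted p = 0.000218) and held without any 1 mouse, and it was chosen here after its values were seen. Ccl2 fell there, at -2.72 ± 0.49 (SE, adjusted p = 0.0132), lost without S2 (-2.92) or S3 (-2.51), and Ier3, an immediate early gene, fell by 1.07 ± 0.20 (SE, adjusted p = 0.0158), lost without V1 (-1.09), V3 (-0.80), S1 (-0.97), S2 (-1.19) or S3 (-1.05). In type 1 dendritic cell-like cells Gapdh, the glycolytic enzyme, rose by 0.54 ± 0.12 (SE, adjusted p = 0.0335), lost without V1 (0.49), V2 (0.54), S2 (0.47) or S3 (0.51); its pseudogenes and an overlapping exon make the count uncertain. In monocyte-like cells of cluster 13 Apoe, a lipid carrier, fell by 0.75 ± 0.16 (SE, adjusted p = 0.0358), lost without V1 (-0.53), V2 (-0.78), S2 (-0.77) or S3 (-0.77).

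Clusters short of cells in 1 or 2 mice were fitted without those mice, an analysis added after the data were seen, and CPM given for them are not TMM-scaled. Monocyte-like cells of cluster 12, without V3, had 15 genes higher and 16 lower of 2593 tested (1.2%). Of 7 tested genes of MHC class II presentation 4 were higher and 0 lower, with a median of 1.44. H2-Aa, the alpha chain of I-A, was at 754 and 713 CPM with vehicle and 2143, 1268 and 4319 CPM with SX682, or 1.69 ± 0.32 (SE, adjusted p = 0.00958), and H2-Ab1, its beta chain, at 427 and 400.3 CPM with vehicle and 1319.5, 808 and 2494 CPM with SX682, or 1.75 ± 0.34 (SE, adjusted p = 0.0106). S3 was highest, and every SX682 mouse lay above both vehicle mice. Of 12 tested type I interferon genes 3 were higher and 0 lower (median 1.23), and of 11 interferon gamma genes 1 was higher (median 0.87). Rtp4, with an exon overlap, was at 12.9 and 21.8 CPM with vehicle and 173, 102 and 54.2 CPM with SX682, or 2.84 ± 0.55 (SE, adjusted p = 0.00981), Ifi27l2a rose by 1.29 ± 0.23 (SE, adjusted p = 0.00774), Oas1a by 2.22 ± 0.50 (SE, adjusted p = 0.0276) and Gbp2 by 2.81 ± 0.68 (SE, adjusted p = 0.0403). Plac8, a marker of classical monocytes, rose by 1.16 ± 0.19 (SE, adjusted p = 0.00449). Chil3 fell by 1.61 ± 0.31 (SE, adjusted p = 0.00981) and Apoe fell by 1.07 ± 0.19 (SE, adjusted p = 0.00646). Without V1, which left 1 vehicle mouse, 0 genes passed. H2-Ab1 was also lost without V2, Chil3 without S2, Gbp2 without V2, S2 or S3, and Oas1a without V2, S1 or S2, and each kept its direction. The split was 19 higher and 15 lower without S1, 13 and 6 without S2 and 15 and 14 without S3. Markers of type 2 dendritic cells summed to 320.2 to 353 CPM in vehicle and 471 to 867 CPM in SX682 mice, with 4 of 8 higher in every SX682 mouse, those of macrophages to 3345 to 3719 CPM in vehicle and 2057 to 2414 CPM in SX682 mice and those of neutrophils to 277 to 925 CPM in vehicle and 893 to 2169 CPM in SX682 mice. Their part in the changes was not tested. Across the 27 clusters, the 26 type I interferon genes gave 0 calls in 209 pairs (median mean change 0.17) and the 26 interferon gamma genes gave 1, Cxcl10 in cluster 29, in 314 (median 0.31).

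Fibroblast-like cells (cluster 20), without S3, had 9 genes higher and 41 lower of 7634 (0.655%). Of the 27 tested genes of the hypoxia and glycolysis list, 4 were lower and 0 higher, with a median of -0.48. Vegfa, the growth factor of blood vessels, was at 196, 219 and 188 CPM with vehicle and 55.4 and 68.8 CPM with SX682, or -1.75 ± 0.26 (SE, adjusted p = 0.0141). Egln3, an oxygen-sensing hydroxylase, fell by 1.56 ± 0.25 (SE, adjusted p = 0.0198) and Ankrd37, with an exon overlap, fell by 3.08 ± 0.44 (SE, adjusted p = 0.0117). Cxcl13, which draws B cells, was at 643, 1022 and 717 CPM with vehicle and 89.8 and 138 CPM with SX682, or -2.86 ± 0.40 (SE, adjusted p = 0.0117). Ptgs2, the inducible enzyme of prostaglandin synthesis, rose from 169, 227 and 131 CPM with vehicle to 542 and 500.04 CPM with SX682, or 1.51 ± 0.25 (SE, adjusted p = 0.0198), and Krt14 rose by 3.24 ± 0.44 (SE, adjusted p = 0.0116). No SX682 mouse overlapped the vehicle mice for any of these. Vegfa was lost without S1 (-1.61) or S2 (-1.89), Cxcl13 without S1 (-2.59) or S2 (-3.18), Egln3 without V2 (-1.54), S1 (-1.49) or S2 (-1.64), Ptgs2 without V1 (1.47), S1 (1.44) or S2 (1.58), and Ankrd37 and Krt14 without S2, and 3 genes in all passed without S2. The count was 30 without V1 and 19 without V2. Tyrobp, an adaptor of myeloid receptors, fell by 1.80 ± 0.30 (SE, adjusted p = 0.0198), lost without S1 (-1.75) or S2 (-1.85). Macrophage markers summed in these cells to 1784 to 2009 CPM in vehicle and 655 to 758 CPM in SX682 mice, with 6 of 10 lower in both SX682 mice, and those of tumour epithelium to 814 to 1441 CPM in vehicle and 1483 to 2256 CPM in SX682 mice, and their part was not tested.

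Endothelial-like cells (cluster 10), without S3, had 5 genes higher and 13 lower of 3966 (0.454%). Ankrd37 fell by 2.58 ± 0.52 (SE, adjusted p = 0.0202), lost without V2 (-2.34), V3 (-2.43) or S1 (-2.83), and Bnip3, a mitochondrial protein induced by low oxygen, fell by 1.60 ± 0.35 (SE, adjusted p = 0.0370), a call lost without any 1 of the 5 mice. Plvap, of the diaphragms of fenestrated endothelium, rose from 453, 334 and 480.5 CPM with vehicle to 827 and 954 CPM with SX682, or 1.14 ± 0.26 (SE, adjusted p = 0.0370), lost without V1 (1.42), V2 (1.02), V3 (1.10) or S2 (1.03). The number of calls was 3 without V1, 4 without V2, 10 without V3, 37 without S1 and 23 without S2, and the balance turned upward in the last pair, to 32 higher and 5 lower and to 13 higher and 10 lower. Alveolar and airway epithelial-like cells (cluster 24), with 2 mice a group, had 0 higher and 5 lower of 5063 (0.0988%), and 2 without S1. Of the hypoxia and glycolysis list, 1 of 492 pairs in the 27 other clusters passed, Gapdh in cluster 18.

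Of the 37 gene lists, most showed few calls. Oxidative phosphorylation genes encoded in the nucleus gave 0 higher and 10 lower calls in 715 pairs (1.40%, against 0.367% of all pairs) and a median mean change of -0.10, beside the mitochondrially encoded genes with 2 higher calls in 317 pairs (0.631%) and a median of 0.22. MHC class I genes had a median of 0.27 with 1 of 16 passing over clusters, H2-T23, at 0.38 ± 0.07 (SE, adjusted p = 0.0251) but lost without any mouse but V3 (0.35 to 0.41), and MHC class II genes 0 of 11 with a median of 0.11. Cell cycle, cholesterol synthesis, checkpoint ligand and growth factor genes gave 0 calls in 331, 172, 131 and 195 pairs by edgeR. List calls were not adjusted apart from those of all genes.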

How the data were processed

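Raw UMI counts per gene and cell, with a table of each cell's treatment, hashtag number and cluster, were deposited by the authors, who per the submitters' processing notes used tools that include Cell Ranger, STAR, HTSeq, Picard, bedtools, bcl2fastq, DESeq2 and R 3.3.0 with the mm10 genome. The notes do not say which tool served which step. The deposited cells all had at least 500 UMIs and at most 20% mitochondrial counts. How doublets were treated is not given in the labels, and none were called or removed in the present work.

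Counts were summed per mouse and cluster wherever a mouse had at least 10 cells, since mice and not cells are the replicates. Each cluster was fitted with edgeR 4.0.16 (TMM scaling, filterByExpr, quasi-likelihood test) on the mice of all 4 treatments, with SX682 minus vehicle as the contrast and a Benjamini-Hochberg adjusted p below 0.05 as a call. CPM are TMM-scaled unless said otherwise. Sums of marker genes, and levels given within or outside a group of clusters, are not TMM-scaled. They are thus not on the scale of the CPM of single genes. Mean changes over clusters (genes tested in at least 5 clusters) and differences between clusters used limma 3.58.1 on log2 CPM with a prior count of 2. Cell shares were tested with edgeR on cell counts per cluster, against each mouse's total. DESeq2 1.42.0 served as an alternative. Python 3.11.15 (numpy 2.4.6, pandas 2.3.3, scipy 1.17.1, matplotlib 3.10.9) and R 4.3.3 were used. On simulated data with 200 changed genes, the edgeR step found 97% of 2-fold changes at the depth of cluster 23, 88% at that of cluster 26 and 74.6% at that of cluster 33. The simulation gave every gene the same spread between mice and planted changes only in better expressed genes. Real genes differ in spread, so these percentages do not tell what part of 2-fold changes was found in these mice.

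Named genes are up to 6 each way per cluster by fold, among called genes with an average of at least 5 log2 CPM and groups that do not overlap. To these come up to 15 each way called in most clusters, up to 10 each way by the mean test, up to 4 members of a list in a cluster where a member was called, and Cxcr1, Cxcr2, Cxcl1, Cxcl2, Cxcl3 and Cxcl5. The text uses part of them, and genes outside the rule are said to be chosen after their values were seen. The members, gene lists and tests were chosen with earlier results of these data known. Intervals are not given for single mice, and the SE covers the spread between mice of 1 capture per treatment.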

Additional observations from a re-analysis of the deposited data

How the results depend on the processing

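Over the 27 clusters, fewer genes rose than fell in every setting tried for the gene calls and the mean changes, while their number moved. Clusters 10 and 12, fitted apart, turned in direction without single SX682 mice. Of the gene calls, 16% were upward as reported, 34.2% with no filter on low counts and 26.9% with ribosomal protein genes left out. The 443 gene calls became 912 with DESeq2, 2535 with no filter, 253 with equal cell numbers, 197 with ribosomal protein genes left out and 182 with transcripts under 1000 bases left out (the last pair chosen after seeing the data), and 173 to 533 without 1 mouse. Leaving out genes leaves fewer to test, and equal cell numbers leave fewer cells. For the rest the cause was not tested. The 108 mean changes became 67 with the 6 mice fitted alone and 40 to 77 without 1 mouse. The 0 differences between clusters became 1 with a prior count of 0.5 and 0 to 2 without 1 mouse. The 1 called share became 0 with the 6 mice alone or with tumour and epithelial clusters, and so cluster 21 itself, left out, and 0 to 4 without 1 mouse, and the change in the share of cluster 21 was -1.64 with the 6 mice alone and -1.93 to -1.32 without 1 mouse. Without 1 mouse, cluster 10 had 3 to 37 calls, cluster 12 had 0 to 34, cluster 20 had 3 to 51 and cluster 24 had 2 to 7. Where 1 mouse of a group remained, it was taken to vary like the other groups.

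Deviations of same-numbered vehicle and SX682 mice from their group means correlated at 0.0568, -0.00418 and 0.0716 over genes and clusters. The labels do not say whether hashtag numbers pair mice between treatments, and weak correlations of such deviations cannot decide it. With the number as a replicate block, 620 gene calls, 159 mean changes, 0 differences and 1 share passed, and the share of cluster 21 changed by -1.61. Of 1570 values of single genes under other settings, 1335 kept direction and side of the threshold, 215 lost the call, 6 gained one and 14 changed sign. Of 101 called results, 55 kept the call without any 1 mouse, and 34 lost it with equal cell numbers. Sign changes were of values that had not passed the test. Cxcr2 in cluster 33 was at -0.0117 with DESeq2, -0.0536 with no filter, -0.000491 with a minimum count of 30, -0.0116 with the replicate block, -0.27 with equal cell numbers, -0.00801 with genes under 5% of another cluster left out, -0.0223 without ribosomal protein genes, -0.0154 without short transcripts, and -0.14 to 0.0806 without 1 mouse. Without 1 mouse, Cxcl2 in cluster 29 ran from -0.28 to 0.00316, Cxcr1 in cluster 30 from -2.52 to 0.29 and Cxcl1 in cluster 23 from -0.33 to 0.77. Depth limits clusters with few cells: 0 calls there do not show that nothing changed.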
